A study of Mus musculus with 24 samples.

Results

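Isl1, Isl2, Mnx1, Lhx3, Lhx4 and Foxp1 encode 6 transcription factors that set and keep motor neuron identity. They were taken by symbol, and each matched 1 of the 38924 genes in the expression tables of mouse spinal cord. All 6 passed the filter on low counts and were among the 17409 genes tested. The question put to them was whether their messages held while effector genes of motor neurons fell in mice with a dominant Gars neuropathy allele, and whether Gcn2 changed that.

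In the embryonic spinal cord, LIM-homeodomain proteins of the Isl and Lhx families join through the cofactor Ldb1 (NLI) into complexes that switch on motor neuron genes. Isl1 is needed for motor neurons to form, and Isl2 is its close paralogue. Lhx3 and Lhx4 are paralogues that act together in newborn motor neurons, after which Lhx3 stays on in neurons that innervate axial muscle and in V2a interneurons. Mnx1 (HB9) represses the interneuron program in motor neurons, and Foxp1 is a Hox cofactor of limb-innervating motor neurons that many other cells also use. Effector genes that such factors switch on include those of acetylcholine synthesis and release.

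The 24 libraries came from whole spinal cords of mice aged 8 weeks, all of the strain background labelled B6J;CASTxB6.129. Gars encodes glycyl-tRNA synthetase, and mice heterozygous for its P278KY allele are a model of Charcot-Marie-Tooth neuropathy. Gcn2, the product of Eif2ak4, is a kinase that phosphorylates eIF2α. GarsP278KY/+ mice and Gars+/+ mice numbered 4 and 4 with Gcn2+/+, 4 and 4 with Gcn2+/-, and 5 and 3 with Gcn2-/-. The labels name no promoter, Cre driver, transgene or treatment. The comparisons are named by the Gcn2 genotype, and in each the GarsP278KY/+ mice were set against the Gars+/+ mice. The labels give each library its own number and sex, 13 male and 11 female in all, but do not state that each came from a separate animal, so the p-values measure the spread between these libraries. Sexes were not balanced. With Gcn2+/+, 1 of 4 GarsP278KY/+ libraries and 3 of 4 Gars+/+ libraries were male, and sex was a term in the fit.

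Total counts were 19.7 to 32.4 M (mega) per library. Eif2ak4 was at 11.4 to 15.01 CPM (counts scaled to library totals and TMM factors) with Gcn2-/-, at 20.4 to 23.6 CPM with Gcn2+/- and at 28.9 to 34.4 CPM with Gcn2+/+, so the Gcn2 labels were separate in the data. The P278KY allele changes the protein, and the level of Gars does not check it. The 5 general neuron genes summed to between 3031 and 4155 CPM in every library, and with Gcn2+/+ every mutant library lay below every control library. A group of 4 libraries stood apart in 6 Schwann cell genes, which mark peripheral nerve. These summed to 980.3 and 2214 CPM in replicates 2 and 4 of Gcn2+/+;GarsP278KY/+, and to 983.8 and 1872 CPM in replicates 1 and 3 of Gcn2+/-;Gars+/+, against 47.1 to 253 CPM in the other 20 libraries. The 253 CPM was that of Gcn2+/-;GarsP278KY/+ replicate 4, and the next highest of the 20 was 88.8 CPM. That replicate was kept when the 4 libraries were left out. Results that rest on the 4 libraries are given with and without them.

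The genes are annotated on GRCm38 by GENCODE M21. Isl2 (ENSMUSG00000032318) lies at chr9:55538672-55546180 on the plus strand. Isl1 (ENSMUSG00000042258) lies at chr13:116298281-116309689, Lhx4 (ENSMUSG00000026468) at chr1:155698031-155751684 and Lhx3 (ENSMUSG00000026934) at chr2:26200212-26208289, all on the minus strand. Mnx1 (ENSMUSG00000001566) at chr5:29473034-29478470 and Foxp1 (ENSMUSG00000030067) at chr6:98925338-99522721 are also on the minus strand. The antisense genes Gm27196 and Gm17226 overlap Lhx3 and Isl2, with means of 0.239 and 0.0305 CPM. The library kits mark strand, but the sources used here do not say how reads were counted by strand.

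The promoters of the Isl and Lhx pairs are shown because Isl2 and Lhx4 lay lower in mutants with intact Gcn2, and their paralogues are set beside them. Each runs 5′ to 3′ from 250 bases before to 50 bases after a RefSeq start on GRCm38.p6. They are Isl2 at chr9:55540899-55541198 on the plus strand, and Isl1 at chr13:116309639-116309938, Lhx4 at chr1:155741978-155742277 and Lhx3 at chr2:26208200-26208499 on the minus strand. Capitals mark a match to 1 of 4 motifs searched on both strands.
Isl2: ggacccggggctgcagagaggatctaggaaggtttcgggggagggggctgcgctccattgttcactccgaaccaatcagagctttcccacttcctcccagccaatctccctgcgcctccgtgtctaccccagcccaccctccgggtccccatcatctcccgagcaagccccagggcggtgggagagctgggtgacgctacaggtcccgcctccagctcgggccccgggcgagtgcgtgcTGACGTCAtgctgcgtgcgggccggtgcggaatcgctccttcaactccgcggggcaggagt
Isl1: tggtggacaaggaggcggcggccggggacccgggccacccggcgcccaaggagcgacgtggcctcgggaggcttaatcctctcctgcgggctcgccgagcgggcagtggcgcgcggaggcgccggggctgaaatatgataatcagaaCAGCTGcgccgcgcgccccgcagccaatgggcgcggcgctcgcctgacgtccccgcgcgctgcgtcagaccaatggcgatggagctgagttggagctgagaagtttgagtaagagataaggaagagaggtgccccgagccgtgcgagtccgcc
Lhx4: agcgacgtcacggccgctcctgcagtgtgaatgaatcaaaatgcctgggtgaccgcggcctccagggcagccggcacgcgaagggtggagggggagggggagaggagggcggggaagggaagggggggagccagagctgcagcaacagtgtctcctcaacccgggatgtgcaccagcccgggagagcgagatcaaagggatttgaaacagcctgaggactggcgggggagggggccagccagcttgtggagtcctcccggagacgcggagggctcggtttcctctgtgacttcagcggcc
Lhx3: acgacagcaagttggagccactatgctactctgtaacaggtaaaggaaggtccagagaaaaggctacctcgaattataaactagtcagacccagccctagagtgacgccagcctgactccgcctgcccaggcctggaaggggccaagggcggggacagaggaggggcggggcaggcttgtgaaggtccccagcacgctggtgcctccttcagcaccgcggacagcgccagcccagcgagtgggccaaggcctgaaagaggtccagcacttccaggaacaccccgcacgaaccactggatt
The motifs were the homeodomain core TAATTA, TGATGNAA, the E-box CANNTG and the CRE TGACGTCA, the last chosen after the sequences were seen. Over 32851 promoters of 300 bases, they were found in 5.29%, 3.97%, 72.3% and 1.79%. Isl2 held 1 TGACGTCA and Isl1 held 1 CANNTG, while the printed Lhx4 and Lhx3 windows held none of the 4. A second Lhx3 start, at chr2:26206526-26206825, held 1 CANNTG. The windows of Isl2, Isl1, Lhx4 and Lhx3 were 67.3%, 69.0%, 66.3% and 61.0% G and C, against a median of 52.7% over all promoters. A match is a description of the letters and was not tied to any factor here.

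Levels between genes can be compared only per length, in TPM, which divides counts by transcript length and by library total. Foxp1 was the most abundant of the 6 in whole cord, at 12.3 ± 2.04 TPM (SD, n = 24). Lhx4 followed at 2.87 ± 0.749 TPM, Isl1 at 1.82 ± 0.515, Isl2 at 1.50 ± 0.456, Mnx1 at 1.47 ± 0.325 and Lhx3 at 1.16 ± 0.264. Foxp1 lay above Lhx4 in 24 of 24 libraries, Lhx4 above Isl1 in 21 and Isl1 above Isl2 in 18. Isl2 lay above Mnx1 in 12 of 24, so this pair has no order beyond its spread, and Mnx1 lay above Lhx3 in 19. The counts behind these levels were low for Isl2, Lhx3, Isl1 and Mnx1. A library held 14 to 48 counts of Isl2, 14 to 41 of Lhx3, 29 to 76 of Isl1, 26 to 69 of Mnx1, 105 to 290 of Lhx4 and 469 to 886 of Foxp1. In whole tissue, fewer cells of a type and less RNA per cell cannot be told apart.

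In mice with intact Gcn2, the factors did not all move alike in value. With mutant Gars, Isl2 fell to 0.525 of its control level in the fit, Lhx4 lay below all control libraries without passing the edgeR test, and Mnx1, Foxp1 and Lhx3 showed no decrease that passed. Of the 6 members 1 fell and 0 rose, where 0.632% of all genes tested passed in either direction and 0.419% fell. At an unadjusted p below 0.05 there were 3 members and 3005 of the 17409 genes tested. DESeq2 called 2 members, and over all genes 397 lower and 261 higher of 14668 with an adjusted p. These all-gene counts also stand beside the other gene lists with Gcn2+/+ below. The median log2 change of the members was -0.28, against 0.01 over all genes.

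Isl2, the paralogue of Isl1, had 0.710, 0.593, 0.845 and 0.797 CPM in the 4 Gcn2+/+;GarsP278KY/+ libraries, against 1.69, 1.59, 1.47 and 1.34 CPM in the 4 Gcn2+/+;Gars+/+ libraries. Every mutant library lay below every control library. The log2 change was -0.93 ± 0.20 (SE; 95% interval -1.35 to -0.51; adjusted p = 0.0386, edgeR quasi-likelihood test). This call stood close to its threshold. It was lost without Gars+/+ replicate 2, 3 or 4 (adjusted p = 0.0949, 0.0658 and 0.0867) or without GarsP278KY/+ replicate 1 or 2 (adjusted p = 0.110 and 0.112, edgeR), while the log2 change stayed between -1.02 and -0.83 over all 8 omissions. Without both libraries high in Schwann cell genes it was -0.90 and no longer passed (adjusted p = 0.181, edgeR). The call was also lost with no filter on low counts (adjusted p = 0.0740), with a Schwann gene covariate (0.103) and with the 4 genotypes of the design text as groups (0.108, all edgeR). It was lost too with only the groups compared in the fit (adjusted p = 0.433, edgeR). With the number shared by library titles as a replicate block the log2 change was -0.75 and the call was lost (adjusted p = 0.166, edgeR). The call was made in 7 of 18 alternatives.

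Lhx4, the LIM-homeodomain partner gene related to Lhx3, had 6.21, 4.25, 5.71 and 4.67 CPM in Gcn2+/+;GarsP278KY/+ libraries, against 8.43, 7.90, 6.75 and 9.70 CPM in Gcn2+/+;Gars+/+ libraries. The ranges again did not overlap. Isl2 and Lhx4 were thus 2 of the 725 genes, 4.16% of those tested, whose mutant libraries all lay lower. The log2 change of Lhx4 was -0.59 ± 0.18 (95% interval -0.97 to -0.21; adjusted p = 0.120, edgeR), and DESeq2 called it with an adjusted p of 0.0488. It was -0.39 without Gars+/+ replicate 4 and -0.44 without the 2 libraries high in Schwann cell genes.

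Isl1, which is needed for motor neurons to form and is also used by dorsal interneurons, had 1.53, 1.94, 1.59 and 1.10 CPM in Gcn2+/+;GarsP278KY/+ libraries, against 1.92, 2.45, 2.68 and 1.64 CPM in Gcn2+/+;Gars+/+ libraries. The groups overlapped. Its log2 change was -0.48 ± 0.21 (95% interval -0.92 to -0.04; adjusted p = 0.246, edgeR). In TPM Isl1 had 2.76, 1.66, 1.76 and 1.33 in these mutants, against 2.31, 1.95, 2.21 and 1.34 in controls. The Isl2 groups stayed apart in TPM (0.75 to 1.47 against 1.78 to 2.09), as did those of Lhx4 (1.48 to 2.48 against 2.83 to 3.96). Lhx3 had 1.21, 1.19, 0.778 and 1.29 CPM in mutants, against 0.846, 1.28, 0.792 and 0.869 CPM in controls. The groups overlapped here too, with a log2 change of 0.26 ± 0.21 (95% interval -0.18 to 0.70).

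Mnx1, the repressor of interneuron genes, averaged 1.77 ± 0.506 CPM in Gcn2+/+;GarsP278KY/+ mice and 1.73 ± 0.235 CPM in Gcn2+/+;Gars+/+ mice (SD, n = 4 each). Its interval was wide, -0.49 to 0.56 on the log2 scale, which at this depth still holds a change of the size seen for Isl1. Foxp1 averaged 27.9 ± 2.14 CPM in mutants and 29.3 ± 2.40 CPM in controls. Its log2 change of -0.07 ± 0.09 had the narrowest interval of the 6, -0.26 to 0.11. This does not reach the estimate of Isl2 or Lhx4, though the Lhx4 interval of -0.97 to -0.21 overlaps it. Foxp1 is not particular to motor neurons, and its whole-cord level also counts other cells. In TPM Foxp1 had 11.82, 14.45, 15.21 and 14.28 in mutants, against 12.77, 10.65, 14.22 and 10.5 in controls.

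**Figure D1:**
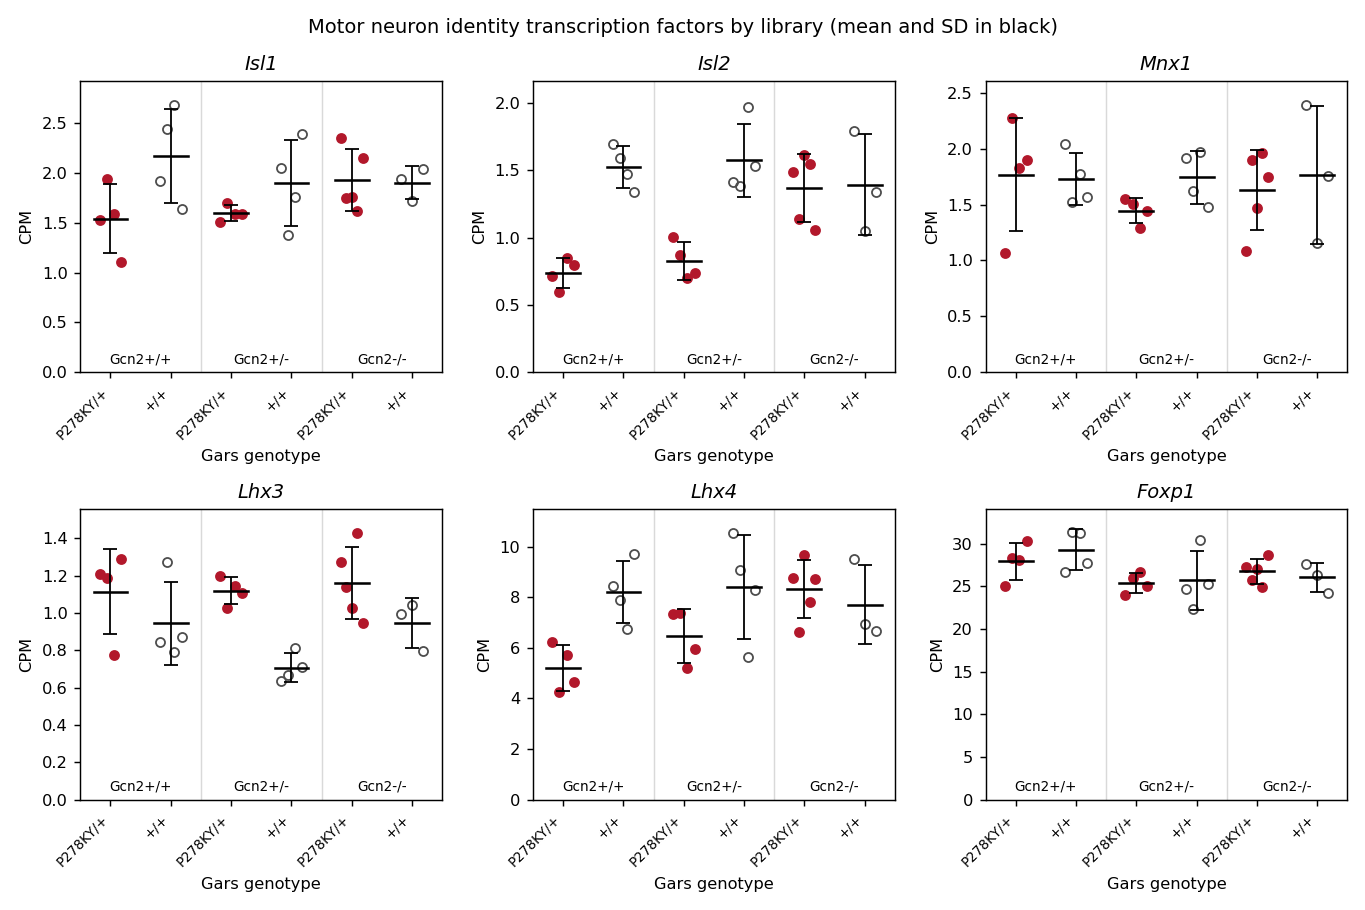
CPM of each of the 6 genes in each of the 24 libraries (points; y axes start at 0), with GarsP278KY/+ left of Gars+/+ within each Gcn2 genotype and a bar at each group mean. Isl2 and Lhx4 of Gcn2+/+;GarsP278KY/+ mice lie wholly below Gcn2+/+;Gars+/+ mice, and with Gcn2-/- the groups overlap for all 6 genes.

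In mice with 1 intact copy of Gcn2, Isl2 was again lower in every mutant library, and Lhx3 was higher in every one, without a call. Of the 6 members 0 were called by edgeR, where 0.178% of all genes passed and 0.126% fell. At an unadjusted p below 0.05 there were 2 members and 2562 of the 17409 genes tested. DESeq2 called 0 members, and over all genes 97 lower and 89 higher of 17352. The median log2 change was -0.26, against -0.01 over all genes.

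Isl2 had 1.01, 0.869, 0.695 and 0.739 CPM in Gcn2+/-;GarsP278KY/+ libraries, against 1.41, 1.38, 1.97 and 1.53 CPM in Gcn2+/-;Gars+/+ libraries. As with Gcn2+/+, every mutant library was lower than every control library, which was so for 3.41% of all genes tested. The log2 change was -0.88 ± 0.20 (95% interval -1.29 to -0.47; adjusted p = 0.0720, edgeR). The Gcn2+/+ and Gcn2+/- comparisons share no libraries. Without all 4 libraries high in Schwann cell genes, an omission chosen after seeing the data, the change was -0.82 (adjusted p = 0.298, edgeR).

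Lhx3, which marks V2a interneurons too, had 1.2004, 1.03, 1.14 and 1.11 CPM in Gcn2+/-;GarsP278KY/+ libraries, against 0.638, 0.667, 0.814 and 0.713 CPM in Gcn2+/-;Gars+/+ libraries. Every mutant library was higher, as for 3.78% of all genes tested. The log2 change was 0.67 ± 0.21 (95% interval 0.23 to 1.11; adjusted p = 0.205, edgeR), and 0.70 without the 4 libraries. The control libraries held only 14 to 19 counts each.

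Lhx4 had 7.36, 7.39, 5.22 and 5.95 CPM in Gcn2+/-;GarsP278KY/+ libraries, against 10.5, 9.10, 5.66 and 8.30 CPM in Gcn2+/-;Gars+/+ libraries. The groups overlapped through control replicate 3, and the log2 change was -0.35 ± 0.18 (95% interval -0.72 to 0.03). Isl1 had 1.51, 1.70, 1.59 and 1.59 CPM in mutants, against 2.05, 1.38, 1.76 and 2.39 CPM in controls, a log2 change of -0.24 ± 0.20. Mnx1 was at -0.27 ± 0.24 and Foxp1 at -0.02 ± 0.09 on the log2 scale. None of these 4 genes had groups that stood apart.

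In mice without Gcn2, none of the factors was lower by the test. Of the 6 members 0 were called by edgeR, 0 had an unadjusted p below 0.05 and DESeq2 called 0, where 0.0115% of all genes passed the edgeR test. An unadjusted p below 0.05 was held by 757 of the 17409 genes tested, and DESeq2 called 7 lower and 19 higher of 17352. All 6 had overlapping groups, while 1.71% of all genes had mutant libraries that all lay lower. The median log2 change was 0.03, against 0.00 over all genes.

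Isl2 had 1.49, 1.14, 1.61, 1.54 and 1.05 CPM in the 5 Gcn2-/-;GarsP278KY/+ libraries, against 1.79, 1.05 and 1.34 CPM in the 3 Gcn2-/-;Gars+/+ libraries. Its log2 change was -0.07 ± 0.20 (95% interval -0.48 to 0.34). The Gcn2+/- interval of -1.29 to -0.47 overlaps this at its edge and the Gcn2+/+ interval of -1.35 to -0.51 does not. The difference from Gcn2+/+ is tested below. Lhx4 had 8.74, 6.64, 9.68, 7.83 and 8.73 CPM in mutants, against 9.52, 6.94 and 6.66 CPM in controls, a log2 change of 0.08 ± 0.18 (95% interval -0.30 to 0.47). Isl1 had 2.36, 1.74, 1.76, 1.62 and 2.15 CPM in mutants, against 1.94, 1.72 and 2.04 CPM in controls, a log2 change of 0.01 ± 0.21. The groups of each of these 3 genes overlapped. Lhx3 was at 0.29 ± 0.21, close to its 0.26 with Gcn2+/+, Mnx1 was at -0.11 ± 0.25 and Foxp1 at 0.04 ± 0.09 on the log2 scale.

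**Figure D2:**
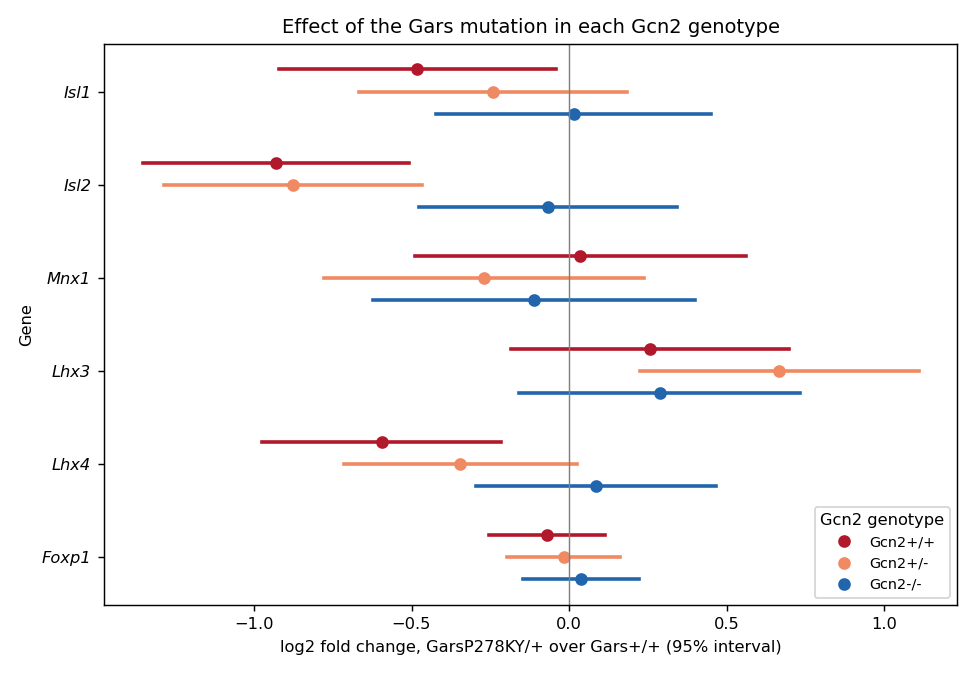
Log2 fold change of GarsP278KY/+ over Gars+/+ for each of the 6 genes in each Gcn2 genotype (points; edgeR fit) with 95% intervals (bars). The intervals of Isl2 lie below 0 with Gcn2+/+ (-1.35 to -0.51) and Gcn2+/- (-1.29 to -0.47) and cross 0 with Gcn2-/- (-0.48 to 0.34).

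Whether the Gars effect itself differed between Gcn2 genotypes was tested by the difference of effects, which shares the Gcn2+/+ libraries with the first comparison. For Isl2, the effect in Gcn2-/- mice minus that in Gcn2+/+ mice was 0.86 ± 0.29 on the log2 scale (95% interval 0.26 to 1.47; adjusted p = 0.937, edgeR). For Lhx4 it was 0.68 ± 0.26 (95% interval 0.13 to 1.23; adjusted p = 0.937, edgeR). Both are positive, that is, less of a decrease without Gcn2, and neither passed the adjustment over all genes. Of the 6 members 0 were called, 2 had an unadjusted p below 0.05 and DESeq2 called 0, where 0.0115% of all genes passed edgeR. An unadjusted p below 0.05 was held by 858 of the 17409 genes tested, and DESeq2 called 9 lower and 26 higher of 17352. Isl1 was at 0.50 ± 0.31, Foxp1 at 0.11 ± 0.13, Lhx3 at 0.03 ± 0.31 and Mnx1 at -0.15 ± 0.36.

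The same difference for Gcn2+/- minus Gcn2+/+ was 0.05 ± 0.27 for Isl2 and 0.25 ± 0.25 for Lhx4. For Lhx3 it was 0.41 ± 0.29, so the Lhx3 change in Gcn2+/- mice was not shown by the test to differ from that in Gcn2+/+ mice. Of the 6 members 0 were called by edgeR, 0 had an unadjusted p below 0.05 and DESeq2 called 0. Over all genes 3.70% passed edgeR, and 4076 of 17409 had an unadjusted p below 0.05. DESeq2 called 646 lower and 1072 higher of 15338 genes. By edgeR 0 genes passed once the 4 libraries high in Schwann cell genes were left out.

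Loss of Gcn2 by itself moved no member past the test. In Gars+/+ mice, with Gcn2-/- set against Gcn2+/+, 0 of 6 were called by edgeR, 0 had an unadjusted p below 0.05 and DESeq2 called 0. Over all genes 0.0287% passed edgeR and 640 of 17409 had an unadjusted p below 0.05, while DESeq2 called 24 lower and 14 higher of 17352. Isl2 and Lhx4 were each at -0.05 on the log2 scale (SE 0.21 and 0.19), Isl1 at -0.18 ± 0.22 and Foxp1 at -0.17 ± 0.09. In GarsP278KY/+ mice, Isl2 averaged 1.37 ± 0.253 CPM with Gcn2-/- (SD, n = 5) and 0.736 ± 0.111 CPM with Gcn2+/+ (n = 4). Its log2 change was 0.81 ± 0.19 (95% interval 0.41 to 1.21; adjusted p = 0.0634, edgeR). Lhx4 averaged 8.32 ± 1.15 CPM with Gcn2-/- and 5.21 ± 0.910 CPM with Gcn2+/+, a log2 change of 0.63 ± 0.17 (95% interval 0.27 to 0.99; adjusted p = 0.143, edgeR; adjusted p = 0.0371, DESeq2). Among mice with mutant Gars, 0 of 6 members passed edgeR, 2 had an unadjusted p below 0.05 and DESeq2 called 1. Over all genes 0.494% passed edgeR, 0.236% were higher with Gcn2-/- and 1745 of 17409 had an unadjusted p below 0.05. DESeq2 called 131 lower and 118 higher of 17352 genes. This comparison shares its libraries with those of the Gars effect and adds no further evidence to them.

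The ratio of paralogue counts within a library does not depend on library scaling. Isl2 counts over Isl1 counts were 0.465, 0.305, 0.532 and 0.724 in Gcn2+/+;GarsP278KY/+ libraries, against 0.880, 0.652, 0.549 and 0.816 in Gcn2+/+;Gars+/+ libraries. With Gcn2+/- they averaged 0.520 ± 0.102 in mutants and 0.862 ± 0.236 in controls (SD, n = 4 each), and with Gcn2-/- 0.729 ± 0.198 (n = 5) and 0.729 ± 0.169 (n = 3). The mutant ratios were lower on average with either Gcn2+/+ or Gcn2+/-, with overlapping ranges in both, and equal on average without Gcn2. These ratios were not tested.

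Lhx4 counts over Lhx3 counts were 5.15, 3.58, 7.35 and 3.62 in Gcn2+/+;GarsP278KY/+ libraries, against 9.95, 6.19, 8.52 and 11.2 in Gcn2+/+;Gars+/+ libraries. With Gcn2+/- they were 6.13, 7.19, 4.57 and 5.37 in mutants, against 16.5, 13.6, 7.13 and 11.6 in controls. Only 1 control library in each genotype reached down into the mutants' range. With Gcn2-/- the ratio averaged 7.39 ± 1.85 in mutants (n = 5) and 8.18 ± 1.46 in controls (n = 3). In both other genotypes Lhx4 was lower and Lhx3 higher on average in mutants. These ratios were not tested either.

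**Figure D3:**
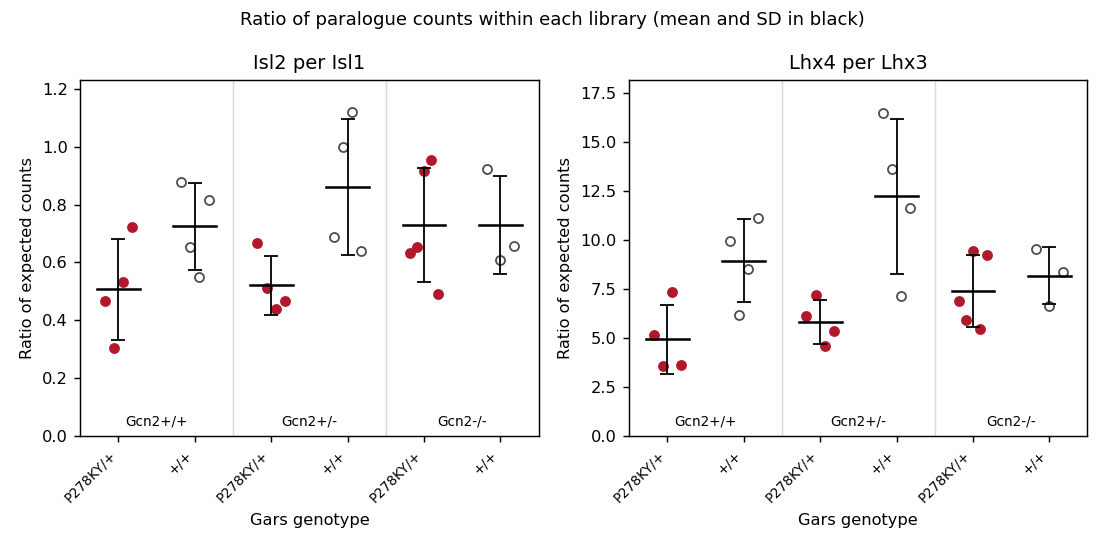
Ratio of counts of Isl2 to Isl1 and of Lhx4 to Lhx3 in each library (points), with GarsP278KY/+ left of Gars+/+ in each Gcn2 genotype and bars at group means. With Gcn2+/- the Lhx4 to Lhx3 ratio averages 5.81 in mutants and 12.2 in controls, and with Gcn2-/- it averages 7.39 and 8.18.

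Effector genes of motor neurons were set beside the factors. Both lists were chosen with earlier results of these data known. Their counts and medians are therefore a description and cannot test whether effectors fell while the factors held. Of 22 listed effectors, 21 were tested, and with Gcn2+/+ 12 fell and 0 rose, where 0.419% of all genes fell. The 18 effectors below 0 compare with 47.3% of all genes, and the effector median log2 change was -0.56. Beside this median stood -0.28 for the 6 factors and 0.01 for all genes. The largest decreases were those of the peptide genes Calca (-2.25) and Calcb (-1.67), of Chodl (-2.09), a marker of fast motor neurons, and of the urotensin gene Uts2b (-1.95). The transporter genes Slc10a4 (-1.16) and Slc5a7 (-0.72) and the channel gene Kcnj14 (-1.10) also fell. The intermediate filament genes Prph (-0.81), Nefl (-0.58), Nefm (-0.56) and Nefh (-0.53) and the acetylcholine synthesis gene Chat (-0.55) were among those that fell. Nefl, Nefm and Nefh had medians of 1596, 1820 and 1004 CPM over all libraries, against 20.1 for Chat. Which cells these 3 messages came from was not tested. Chat averaged 14.7 ± 0.796 CPM in Gcn2+/+;GarsP278KY/+ mice and 21.8 ± 1.45 CPM in Gcn2+/+;Gars+/+ mice (SD, n = 4 each). Without the 2 libraries high in Schwann cell genes 10 effectors fell, where 21 of 17561 genes fell. With only the 2 groups compared in the fit 4 effectors fell. DESeq2 called 16 effectors lower, and 397 of 14668 genes.

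With Gcn2+/-, 9 of 21 effectors fell and 0 rose (median -0.43), where 0.126% of all genes fell. The 9 included Chat at -0.53, Prph at -0.97 and Slc10a4 at -0.91. Without all 4 libraries high in Schwann cell genes 5 effectors fell, where 10 of 17469 genes fell. With the title number as a replicate block 2 effectors fell, where 4 of 17409 genes fell. With only the groups compared in the fit 3 effectors fell. Slc5a7, the choline transporter gene, was at -0.02 with Gcn2+/- and lay apart from Chat. With Gcn2-/-, Calca (-1.96) and Calcb (-0.999) fell, where 0.0115% of all genes passed, and the effector median was -0.12. Calca thus fell in the same mice in which Isl2, Lhx4 and Isl1 had log2 changes of -0.07, 0.08 and 0.01. For the difference of effects between Gcn2-/- and Gcn2+/+, 1 of 21 effectors passed (Kcnj14, 1.19), 20 lay above 0 and the median was 0.42. Over all genes 0.0115% passed, 49.98% lay below 0 and the median was 0.00. In Gars+/+ mice loss of Gcn2 moved 0 effectors (0 at an unadjusted p below 0.05 by edgeR and 0 by DESeq2), where 0.0287% of all genes passed edgeR. In GarsP278KY/+ mice 9 effectors were higher with Gcn2-/- than with Gcn2+/+ (median 0.40), as were 0.236% of all genes. Without the 2 Schwann-rich libraries 5 effectors were higher, where 25 of 17561 genes were higher.

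**Figure D4:**
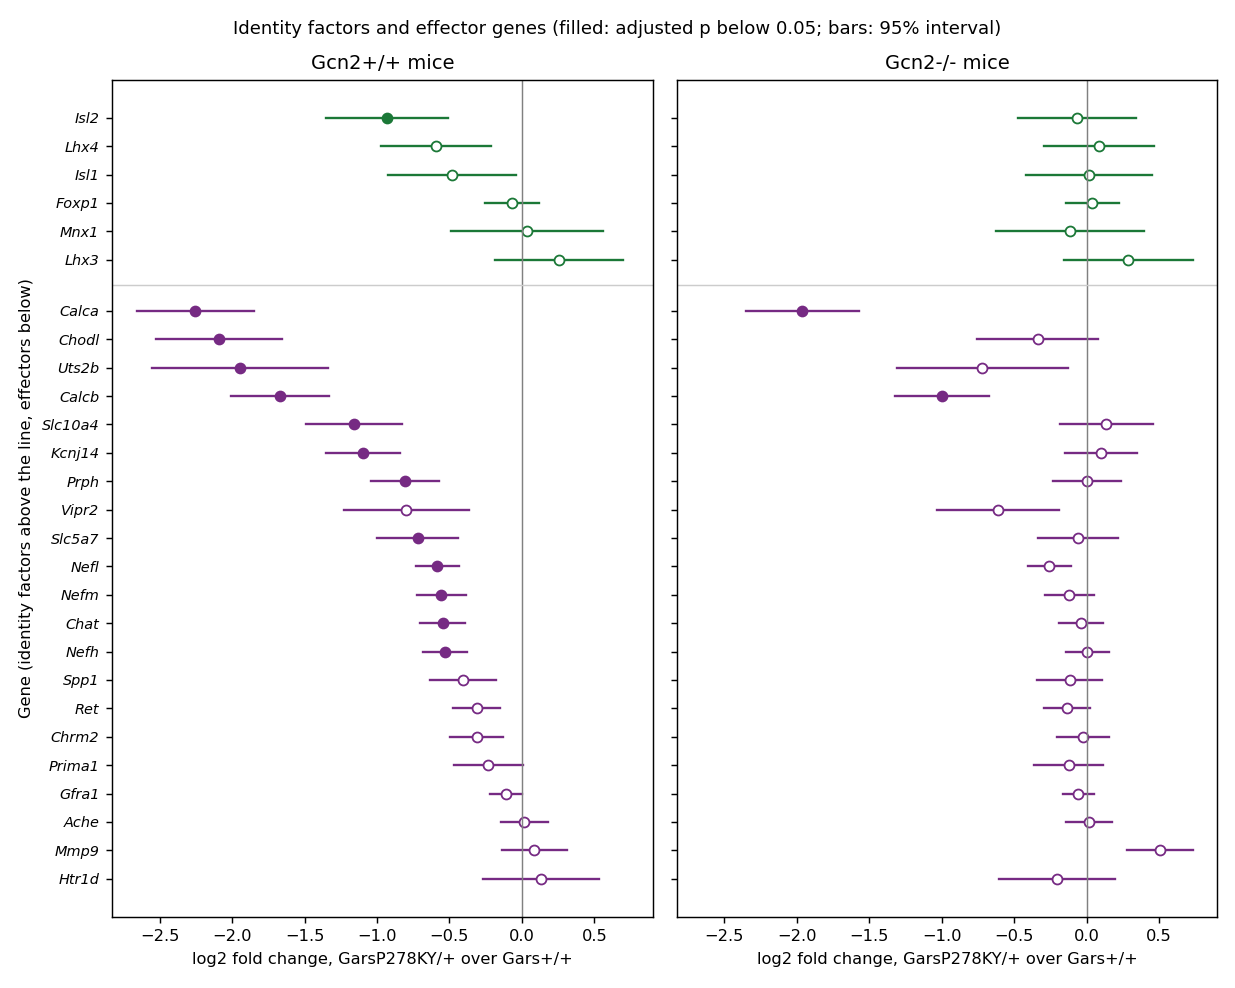
Log2 fold changes of GarsP278KY/+ over Gars+/+ with Gcn2+/+ and with Gcn2-/- (points). The genes are the 6 identity factors and the 21 tested effector genes. Bars are 95% intervals, and filled points have an adjusted p below 0.05. The Gcn2+/- comparison and the medians are not drawn. The effector medians are -0.56, -0.43 and -0.12 with Gcn2+/+, Gcn2+/- and Gcn2-/-, and those of the identity factors are -0.28, -0.26 and 0.03.

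Among cofactors that hold LIM complexes together, none passed the edgeR test with Gcn2+/+. Of 10 LIM complex partners 0 were called by edgeR, 2 had an unadjusted p below 0.05 and DESeq2 called 1. Ldb1, the dimerising adaptor, was at 0.18 ± 0.09 and Ldb2 at 0.17 on the log2 scale, and Rlim, which encodes a ubiquitin ligase for Ldb proteins, at -0.29. Ssbp4, an Ldb1-stabilising protein gene, was at 0.45 (adjusted p = 0.0910, edgeR), and DESeq2 called it (adjusted p = 0.0253). It was at 0.60 without the 2 Schwann-rich libraries (adjusted p = 0.0949, edgeR). Their summed level was 442 to 482 CPM in Gcn2+/+;GarsP278KY/+ mice and 436 to 481 CPM in Gcn2+/+;Gars+/+ mice. The ranges of the groups overlapped.

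Of 15 further motor neuron transcription factors, 13 were tested, and with Gcn2+/+ 0 passed edgeR, 3 had an unadjusted p below 0.05 and DESeq2 called 0. Onecut2 was at -0.30, Etv4 at -0.22, Ebf2 at 0.18 and Onecut1 at 0.74, so members of 1 family lay on both sides of 0. Ebf2, an early B-cell factor gene used in motor columns, rose with Gcn2+/- by 0.36 ± 0.07 (adjusted p = 0.0452, edgeR), and this call ended without the 4 Schwann-rich libraries (0.35, adjusted p = 0.288, edgeR). Of 22 tested interneuron factors, 1 rose with Gcn2+/+, Tlx3 of the dorsal horn (0.81 ± 0.18, adjusted p = 0.0473, edgeR). It was no longer called without the 2 Schwann-rich libraries (0.86, adjusted p = 0.120, edgeR). The interneuron list as a whole had 16 members above 0 and a median of 0.14.

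Markers of other cells moved with these groups, and their part in the results was not tested. The Schwann cell genes summed to 55.2 to 2214 CPM in Gcn2+/+;GarsP278KY/+ and 49.4 to 73.4 CPM in Gcn2+/+;Gars+/+ libraries. With Gcn2+/- they summed to 47.1 to 253 CPM in mutants and 55.8 to 1872 CPM in controls, and with Gcn2-/- to 48.1 to 87.3 and 64.2 to 72.3 CPM. With Gcn2+/+, 0 of 6 Schwann cell genes were called by edgeR, 3 had an unadjusted p below 0.05 and DESeq2 called 4. The 6 marker genes of meninges and fibroblasts summed to 63.0 to 1197 CPM in Gcn2+/+;GarsP278KY/+ and 63.7 to 87.5 CPM in Gcn2+/+;Gars+/+ libraries, to 48.4 to 146 CPM in mutants and 60.8 to 628 CPM in controls with Gcn2+/-, and to 58.1 to 72.0 and 51.7 to 85.6 CPM with Gcn2-/-. With Gcn2+/+, 6 of 6 lay above 0 (median 2.42), 0 were called by edgeR, 5 had an unadjusted p below 0.05 and DESeq2 called 3. Without the 2 Schwann-rich libraries 4 lay above 0 and the median was 0.04.

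The 4 astrocyte genes summed to 3584 to 4294 CPM in Gcn2+/+;GarsP278KY/+ and 2427 to 3746 CPM in Gcn2+/+;Gars+/+ libraries. Of these 4 genes 0 were called by edgeR, 2 had an unadjusted p below 0.05 and DESeq2 called 0, with a median log2 change of 0.24. With Gcn2+/- they summed to 2910.4 to 3843 CPM in mutants and 2626 to 4210.0 CPM in controls, and with Gcn2-/- to 2309.9 to 3445 and 2958 to 3411 CPM.

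Sensory neuron genes also moved, and Isl1 is expressed in sensory neurons. With Gcn2+/+, P2rx3 (1.86) and Avil (2.43) rose among the 3 tested of 8 listed. P2rx3 was also called without the 2 Schwann-rich libraries (1.93, adjusted p = 0.000735, edgeR) and by DESeq2, while Avil was at 2.36 without them (adjusted p = 0.0572, edgeR) and has no adjusted p by DESeq2. The 8 genes summed to 7.25 to 8.32 CPM in mutants and 2.01 to 3.12 CPM in controls, to 3.75 to 5.77 and 2.27 to 3.05 CPM with Gcn2+/-, and to 2.70 to 3.15 and 2.14 to 2.74 CPM with Gcn2-/-. The defining nociceptor markers Mrgprd, Scn10a and Prdm12 were at 0 in 23, 11 and 10 of the 24 libraries. General neuron genes summed to 3031 to 3393 CPM in Gcn2+/+ mutants and 3595 to 4155 CPM in controls, ranges that did not overlap. The general neuron genes lay between -0.35 and 0.02 on the log2 scale, and their part in the other decreases was not tested. Of these 5 genes 0 were called by edgeR, 2 had an unadjusted p below 0.05 and DESeq2 called 2.

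Library titles begin with a number that several libraries share and whose meaning the labels do not give. Within the lower and the higher title numbers of Gcn2+/+ mice, the Isl2 difference in mean log2(CPM + 0.25), mutant minus control, was -0.75 (2 against 1 libraries) and -0.93 (2 against 3). For Lhx4 these were -0.17 and -0.92. Within Gcn2+/- mice, Isl2 was at -0.92 and -0.60, Lhx4 at -0.05 and -0.64 and Lhx3 at 0.38 and 0.66 (2 against 2 libraries in each). The Isl2 and Lhx3 differences were present in both sets, and that of Lhx4 mostly in the higher numbers. With Gcn2-/-, Gars+/+ libraries were found only among the lower numbers, where Isl2 was at -0.05 and Lhx4 at 0.26.

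Among the 15 pairs of members, Isl2 and Lhx4 were correlated over the 24 libraries (Pearson r = 0.67, permutation p = 0.0003, adjusted p = 0.0048; Spearman rho = 0.59, permutation p = 0.0031, adjusted p = 0.0468). Without the 2 libraries farthest from the Isl2 median r was 0.54. On deviations from the group means r was 0.18, so the relation rests on differences between the 6 groups rather than on libraries of 1 group. Isl1 and Isl2 had r = 0.46 (permutation p = 0.0230, adjusted p = 0.172). The remaining 13 pairs had adjusted permutation p-values for r above that of Isl1 and Isl2.

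The genes whose log2 levels were most like those of each member were sought among genes with a mean of at least 1 CPM, over the 24 libraries. For Isl2 these were the effectors Slc10a4 (r = 0.89) and Chat (0.88), and Anxa6 (0.87). Lhx4 had Kcnj14 (0.81), a motor neuron channel gene, Nell1 (0.79) and Pcyt1b (0.78). The other 4 members led to no listed effector. Isl1 had Grsf1 (0.77), Paip2b (0.76) and Pdp1 (0.73), and Mnx1 had Rpl37 (0.69), Myo10 (0.66) and Gm4149 (0.65). Lhx3 had Ccdc17 (0.68), Fam83h (0.67) and Afdn (0.65), and Foxp1 had Trim56 (0.74), Prss23 (0.73) and Slfn5 (0.69). These correlations share library and group and are given as a description.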

How the data were processed

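Poly(A) RNA libraries of whole spinal cord were read as 75 bp pairs, per the labels' protocols, which name 2 library kits without saying which library had which. The submitters' processing notes name Bowtie2 2.2.0 and RSEM 1.2.12 and do not give the files' genome build. The authors deposited RSEM expected counts and TPM per gene. Expected counts need not be whole, and 72.0% of nonzero values lay within 0.005 of a whole number. They were rounded. Counts without a GENCODE M21 symbol were 0.261% of the total. edgeR 4.0.16 (R 4.3.3; filterByExpr by group, TMM, robust quasi-likelihood F-test, terms for the 6 groups and sex, all 24 libraries, 17 residual degrees of freedom) gave log2 fold changes, with p-values adjusted by Benjamini-Hochberg across the 17409 genes tested (threshold 0.05). SE is the absolute log2 change over the root of F. DESeq2 1.42.0 was an alternative, as were other filters, terms and sets of libraries. Permutation p-values used 100000 resamples (Python 3.11.15, scipy 1.17.1). The fit script was tested on simulated data. The 6 members and the gene lists were chosen with earlier results of these data known. Named genes were all members, the called genes of other lists or else up to 4 with the smallest p with Gcn2+/+ (up to 12 effectors), and 3 likeness genes per member. Slc18a3 was not analysed here. The main fit had no term for title number, though libraries that shared one deviated together more than others (median r 0.20 against -0.03).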

Additional observations from a re-analysis of the deposited data

Results flagged for a closer look

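Lhx3 in Gcn2+/+;Gars+/+ replicate 2, at 1.28 CPM, stood apart from the other 3 libraries of its group by the Dixon test, out of 30 groups examined, of which chance marks about 1 in 20.

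The Gars effect on Kcnj14 differed between Gcn2-/- and Gcn2+/+ mice by 1.19 on the log2 scale (adjusted p = 0.00963, edgeR), and by 1.16 (adjusted p = 0.0423, edgeR) without the 2 Gcn2+/+;GarsP278KY/+ libraries high in Schwann cell genes. With the title number as a replicate block it was 1.12 and not called (adjusted p = 0.303, edgeR). It is the gene most like Lhx4 over the libraries.

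A set of 6 listed genes had a Gars effect that differed between Gcn2+/- and Gcn2+/+ mice by the edgeR test: Slc5a7 by 0.70, Nefl by 0.37, Snap25 by 0.48, Onecut2 by 0.59, Ssbp4 by -0.65 and Foxd3 by -1.40. Without the 4 Schwann-rich libraries, these differences were 0.78, 0.28, 0.36, 0.69, -0.77 and -0.26 in the same order, and none passed. The calls over all genes in this difference then numbered 0, against 644 with all libraries, and the part of the Schwann-rich libraries was not tested further.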

How the results depend on the processing

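Over 834 alternatives for 42 member results, 749 kept their direction and their side of the threshold, 70 changed sign, none of these with a call, 11 lost and 4 gained a call. The Isl2 decrease with Gcn2+/+ lay between -1.02 and -0.75 in every alternative but the fit without sex (-1.05), and its adjusted p ranged from 0.0124 to 0.433. The cause of the changes below was not tested.

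DESeq2 called 2 members for the Gars effect with Gcn2+/+ and 1 for loss of Gcn2 in GarsP278KY/+ mice. With a Schwann gene covariate the first count was 0 (Isl2 -0.96), and Mnx1 was at -0.23 there, 0.10 and 0.20 in the differences for Gcn2-/- and Gcn2+/-, and 0.15 for loss of Gcn2 in mutants, where Foxp1 was at 0.041; Foxp1 was at 0.080 with Gcn2+/-. Without both Schwann-rich Gcn2+/+ mutants, 0 members were called (Isl2 -0.90), Mnx1 was at -0.24, 0.12 (difference for Gcn2-/-) and 0.17 and Foxp1 at 0.014 (loss of Gcn2 in mutants). Without all 4 Schwann-rich libraries, 5 effectors fell with Gcn2+/- (10 over all genes), Foxp1 was at 0.10 there and Mnx1 at 0.15 in the difference. With no filter on low counts 0 members were called (Isl2 -0.93). Without sex, 1 member was called for loss of Gcn2 in mutants, and Lhx3 was at -0.0041 for loss in Gars+/+ mice.

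With only the groups compared, 0 members and 4 effectors were called with Gcn2+/+ (Isl2 -0.99, Mnx1 -0.18), 1 and 3 effectors with Gcn2-/- and Gcn2+/-, Isl2 was at 0.012 for loss in Gars+/+ mice and Mnx1 at 0.10 for loss in mutants. With 4 genotypes, 0 members (Isl2 -0.93, Mnx1 -0.029) and, with Gcn2-/-, 1 effector were called, Isl1 was at -0.018 there and Mnx1 at -0.012 for loss in Gars+/+ mice.

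The title number was not a term in the main fit. Deviations of 32 same-number pairs correlated at -0.13 to 0.43 (median 0.20), with 23 over 0.1. Over 207 other pairs the median was -0.03, with 52 over 0.1. With the title number as a replicate block, 0 members were called with Gcn2+/+ (Isl2 -0.75, adjusted p = 0.166, edgeR), and 1 and 2 effectors with Gcn2-/- and Gcn2+/-. Over all genes 1 and 4 were called lower with Gcn2-/- and Gcn2+/-. Lhx3 (-0.019) and Foxp1 (-0.026) with Gcn2-/-, Mnx1 (0.14) and Foxp1 (0.17) with Gcn2+/-, Lhx3 (-0.43) in the Gcn2-/- difference, Isl1 (-0.21), Isl2 (-0.12), Mnx1 (0.0016) and Lhx4 (-0.040) in the Gcn2+/- difference, Lhx4 (0.013) for loss in Gars+/+ mice and Lhx3 (-0.068) for loss in mutants changed sign under this block. With title numbers in 2 sets, 1 effector fell with Gcn2-/- and Lhx3 was at -0.15 in the Gcn2-/- difference.

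Leaving out 1 library at a time gave 0 to 1 members called with Gcn2+/+ and for loss in mutants, and 1 to 2 effectors with Gcn2-/-. Ranges with Gcn2+/+ were -1.02 to -0.83 for Isl2, -0.10 to 0.32 for Mnx1 and -0.11 to 0.0043 for Foxp1. With Gcn2-/- they were -0.068 to 0.078 for Isl1, -0.20 to 0.10 for Isl2, -0.34 to 0.23 for Mnx1 and -0.014 to 0.10 for Foxp1, and with Gcn2+/- -0.076 to 0.073 for Foxp1. In the Gcn2-/- difference Mnx1 spanned -0.45 to 0.27 and Lhx3 -0.12 to 0.13, and in the Gcn2+/- difference Isl2 -0.035 to 0.17 and Foxp1 -0.011 to 0.15. For loss in Gars+/+ mice Isl2 spanned -0.23 to 0.077, Mnx1 -0.33 to 0.25, Lhx3 -0.068 to 0.18 and Lhx4 -0.21 to 0.15, and for loss in mutants Mnx1 -0.37 to 0.020 and Lhx3 -0.081 to 0.13.

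Calls over all genes ran from 11 to 658 (110 as reported) with Gcn2+/+, 1 to 26 (2) with Gcn2-/-, 4 to 186 (31) with Gcn2+/-, 0 to 35 (2) and 0 to 1784 (644) for the differences of Gcn2-/- and Gcn2+/-, and 3 to 38 (5) and 21 to 249 (86) for loss of Gcn2 in Gars+/+ and GarsP278KY/+ mice. Counts of 14 to 76 per library for Isl2, Lhx3, Isl1 and Mnx1 limit their precision.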
